A study of Arabidopsis thaliana with 4 samples.

Results

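UDP-glycosyltransferases of the UGT family were followed in Arabidopsis thaliana seedlings under hypoxia, in total RNA and in RNA from large polysomes. A probe set was taken as a member when its only gene symbol, updated through the Entrez identifier to RefSeq TAIR10.1, began with UGT and a digit. This gave 47 genes with 1 probe set each, of 13350 genes with a probe set of their own (13513 probe sets) and 22810 probe sets on the array. RefSeq lists 58 genes with such a symbol, and 3 further probe sets that name a UGT together with another gene were not used. Of the 47 members, 29 had an intensity above 140 on at least 1 array and carry the values below, and the other 18 did not. All 47 probe set names end in a plain _at, the form that the array's design gives to a set meant for 1 transcript.

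UGTs move a sugar, most often glucose, from a UDP-sugar onto small molecules such as hormones, flavonoids, cell wall precursors and foreign compounds. The sugar makes the acceptor more soluble, often stops its activity, and lets it be stored in the vacuole. In plants the family is large, many members lie in tandem arrays, and the number and letter in a symbol group members by the likeness of their proteins. Several are known for a strong rise of their mRNA under chemical, pathogen or oxidative stress.

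The samples were 7-d-old wild-type seedlings of the Ler accession in low light, on 4 Affymetrix ATH1 arrays with 1 array per group. The groups were total RNA after 12 h of hypoxia, total RNA of non-stressed seedlings, large-polysome RNA after 12 h of hypoxia and large-polysome RNA of non-stressed seedlings kept for 12 h. No time is given for the total RNA control, and no label says how many seedlings or cultures went into a sample. Large polysomes are mRNAs loaded with many ribosomes, so their signal over that of total RNA describes how much of an mRNA was found there compared with the average mRNA, and is not a measure of protein made.

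With 1 array per group there is no replicate error and no p-value, so 2-fold (a log2 ratio of 1) served to count members, always beside the share of all 1-gene probe sets past the same fold. The deposited intensities had been scaled by array, so a value can be read only against the other genes on the same array. Intensities under a floor of 140 were set to 140 before the log2 ratio, a ratio with 1 side under the floor is a bound, and a member under it on both sides has no ratio. Pairs of probe sets for the same gene give a measure of probe error: the median difference of their hypoxia log2 ratios was 0.40 for total RNA (65 genes) and 0.37 for large-polysome RNA (33 genes), and the 95th percentiles were 1.15 and 1.28. A single ratio near 2-fold therefore lies within the difference between probes of a gene. The hypoxia check gene PDC2, a pyruvate decarboxylase of fermentation, stood at 3658.5 in hypoxia against 411.5 in control in total RNA, and at 4473.2 in hypoxia against 306.1 in control on large polysomes. The shoot markers LHCB4.1 and LHCB4.2 and the root marker PYK10 were far above the floor on all 4 arrays, as whole seedlings hold both organs. The shoot marker LHCB4.3, at 249.1 to 410.5, and the root marker EXPA18, at 243.5 to 859.6, were nearer to it. The root marker EXPA7 was under the floor on both hypoxia arrays, at 95.6 in total and 105.4 in large-polysome RNA.

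Of the 29 members, 16 were above the floor on all 4 arrays and 13 on 1 to 3 of them. The 16 are 34% of the 47 UGT probe sets, against 43.3% of all 1-gene probe sets above it on all 4 arrays. Above the floor were 21 in total RNA in hypoxia, 26 in total RNA of control, 20 in large-polysome RNA in hypoxia and 23 in large-polysome RNA of control. Above 140 on at least 1 array were 61.7% of UGT probe sets and 58.8% of all 1-gene probe sets. The members just inside that limit were UGT76E12 with a highest deposited intensity of 160.1 and UGT85A4 with 160.6, and those just outside were UGT71C2 with 129.6 and UGT85A3 with 118.3. For 10 of the 18 members outside it, the highest intensity was under 50. They include UGT78D3, UGT84A1, UGT84B1, UGT84B2, UGT74F1, UGT71B6 and UGT71B8. The array's probes were designed on the Columbia genome, so a low signal in Ler cannot be told apart from poor hybridisation.

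**Figure D1:**
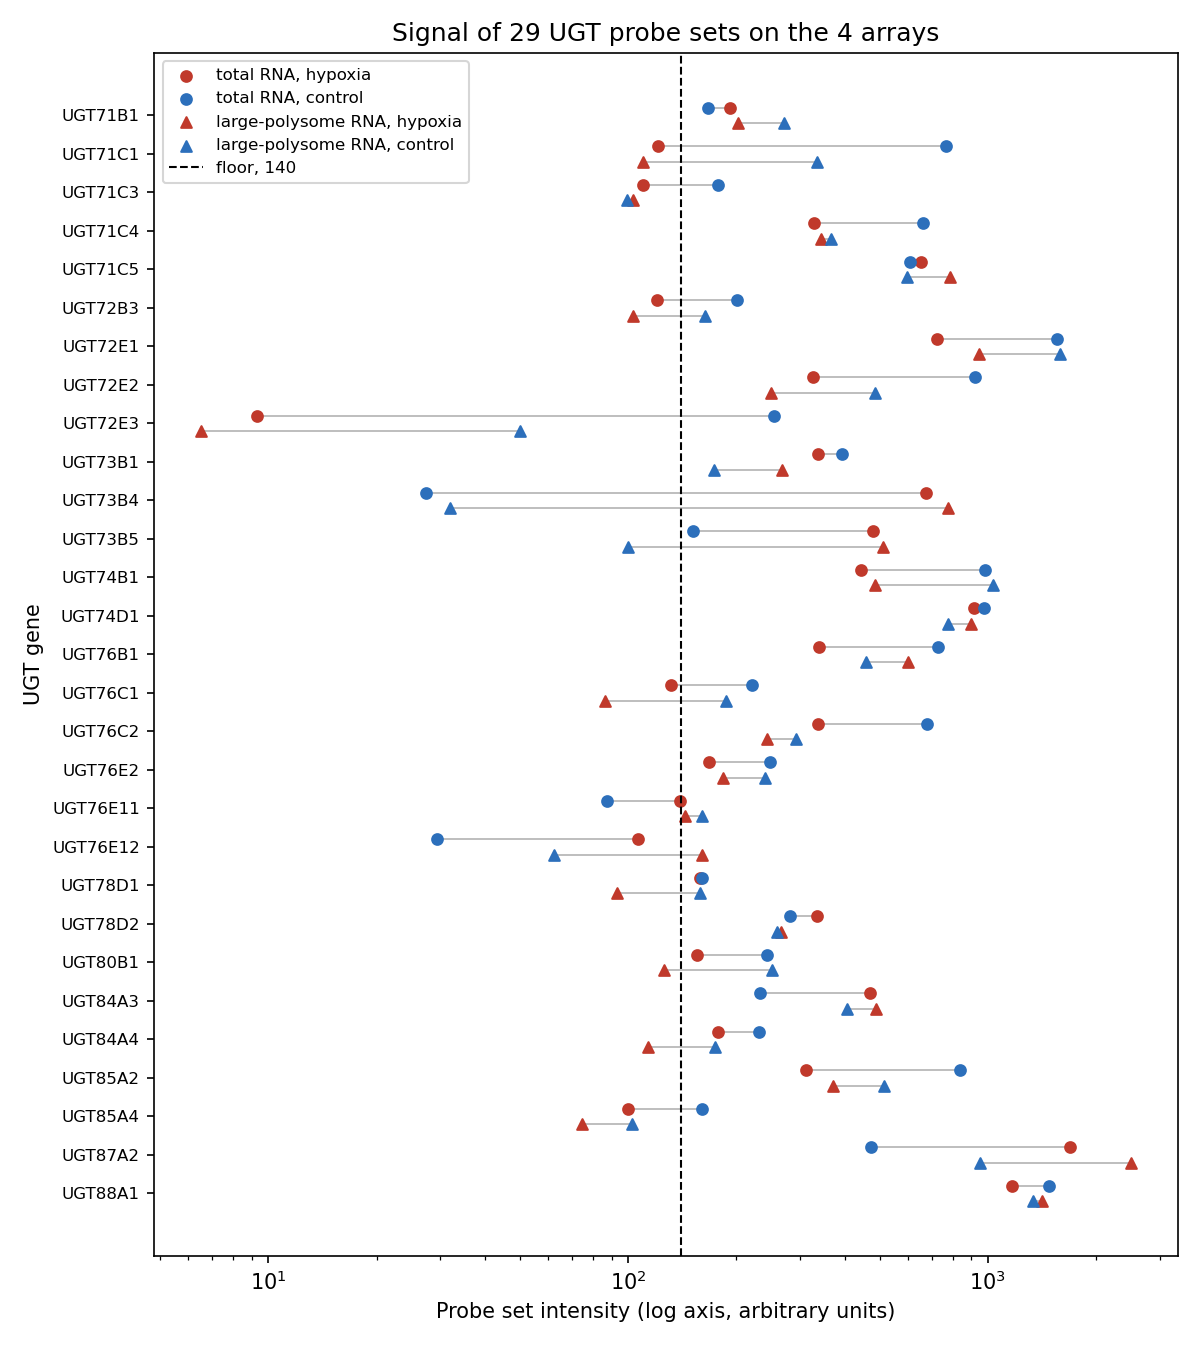
Intensity (log axis) of the 29 UGT probe sets on each of the 4 arrays, with circles for total RNA, triangles for large-polysome RNA, red for hypoxia and blue for control; grey lines join hypoxia and control of the same fraction, and the dashed line is the floor of 140. The red symbols of UGT73B4, UGT73B5 and UGT87A2 lie well to the right of the blue ones in both fractions, and those of UGT71C1, UGT72E1, UGT72E2 and UGT74B1 well to the left. Positions of different genes are not comparable, since each probe set has its own brightness.

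In total RNA, 4 UGT mRNAs were higher in hypoxic than in control seedlings by 2-fold or more, and 8 were lower by that much. The higher ones were UGT73B4 and UGT73B5, a pair known for stress and xenobiotic responses, UGT87A2, which influences flowering time, and UGT84A3, which forms glucose esters of hydroxycinnamic acids. The lower ones were led by UGT71C1 and included enzymes acting on monolignols (UGT72E1, UGT72E2), glucosinolate precursors (UGT74B1) and cytokinins (UGT76C2). Of the 27 members with a ratio, 14.8% passed 2-fold upward and 29.6% downward, against 5.45% and 8.65% of 7692 probe sets with 1 gene. The median log2 ratio of the members was -0.38, against -0.06 for all, and 74.1% of members were below 0, against 53.8% of all. Of the 7 bounds, 6 were above the floor in control only and could lie only below 0. Leaving the bounds out gave a median of -0.36 over 20 members, 14 of them below 0. With arrays scaled on the spiked hybridisation controls, where the median of all probe sets was 0.22, 4 members were past 2-fold upward and 3 downward (UGT71C1, UGT72E2 and UGT85A2), beside 11.2% and 4.59% of all probe sets. UGT72E1 at -0.81, UGT74B1 at -0.84, UGT76C2 at -0.70, UGT71C4 at -0.70 and UGT76B1 at -0.80 then fell short of 2-fold. The share of higher members among those past 2-fold was 57.1% with that scaling and 33.3% in the main one, and among all probe sets it was 70.8% and 38.7%. In bulk seedlings, fewer cells of a type and less RNA per cell cannot be told apart.

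UGT73B4 had an intensity of 673.9 in hypoxia and 27.5 in control in total RNA, and of 777.1 in hypoxia against 32.1 in control on large polysomes. In total RNA it was thus at least 4.81-fold higher and on large polysomes at least 5.55-fold, both bounds because both control arrays were under the floor. These bounds ranked 54 from the top of 7692 probe sets and 56 from the top of 7360. Its neighbour UGT73B5 had 480.3 in hypoxia and 151.4 in control in total RNA, and 512.7 in hypoxia against 100.1 in control on large polysomes. The fold was 3.17 in total RNA and at least 3.66 in large-polysome RNA, so both genes of the pair were high on the hypoxia arrays and near or under the floor on the control arrays. With a floor of 280 the log2 ratios of UGT73B5 became bounds of 0.78 in total RNA and 0.87 on large polysomes. The third member of the subfamily, UGT73B1, known to act on flavonoids, did not share this, with 337.0 in hypoxia and 392.4 in control in total RNA, and 268.1 in hypoxia against 173.2 in control on large polysomes. Its log2 ratios were -0.22 and 0.63.

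UGT87A2 was high on both hypoxia arrays, and its highest intensity was in large-polysome RNA in hypoxia. It stood at 1688.5 in hypoxia and 473.6 in control in total RNA, and at 2499.3 in hypoxia against 951.5 in control on large polysomes. The fold was 3.57 in total RNA and 2.63 in large-polysome RNA, with all 4 arrays above the floor. UGT84A3 had 469.5 in hypoxia and 233.4 in control in total RNA, and 490.0 in hypoxia against 406.9 in control on large polysomes. Its log2 ratio of 1.01 in total RNA is at the limit of 2-fold, and in large-polysome RNA it was 0.27. The neighbouring gene UGT84A4, which acts on the same class of acids, had log2 ratios of -0.38 and, as a bound, -0.32.

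UGT71C1, which acts on flavonols and other phenolic compounds in vitro, was the lowest of the members in both fractions. Its intensity was 120.9 in hypoxia and 763.1 in control in total RNA, and 109.9 in hypoxia against 334.6 in control on large polysomes. The total RNA value was at least 5.45-fold lower, a bound that ranked 32 from the bottom of all probe sets, and the large-polysome value at least 2.39-fold lower. UGT71C4 had 329.3 in hypoxia and 661.8 in control in total RNA, but 342.9 in hypoxia against 367.6 in control on large polysomes. Its log2 ratios were -1.01 and -0.10. UGT71C5, an abscisic acid glucosyltransferase next to UGT71C4 in the genome, was level or higher in hypoxia, with 651.2 in hypoxia against 608.6 in control in total RNA, and 784.7 in hypoxia against 596.9 in control on large polysomes. UGT71C3, the third of that array, was above the floor in total RNA of control only, at 178.3.

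The UGT72E enzymes glucosylate monolignols, the building units of lignin, and all 3 were lower in hypoxia in total RNA. UGT72E2 had 326.4 in hypoxia and 922.5 in control in total RNA, and 249.9 in hypoxia against 486.5 in control on large polysomes, log2 ratios of -1.50 and -0.96. UGT72E1 had 720.3 in hypoxia and 1556.8 in control in total RNA, and 943.4 in hypoxia against 1583.2 in control on large polysomes, log2 ratios of -1.11 and -0.75. In the main scaling both thus passed 2-fold in total RNA and fell short of it in large-polysome RNA. With spiked-control scaling UGT72E1 had log2 ratios of -0.81 in total and -1.11 in large-polysome RNA. Those of UGT72E2 were then -1.20 and -1.33, so the contrast between fractions depends on the scaling. UGT72E3 had 9.3 in hypoxia and 254.7 in control in total RNA, at least 1.82-fold lower, and was under the floor on both large-polysome arrays. UGT72B3, of the same family, was above the floor in both control fractions only.

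UGT74B1, which glucosylates thiohydroximates in glucosinolate synthesis, was lower by a like amount in both fractions in the main scaling. It had 444.8 in hypoxia and 981.1 in control in total RNA, and 484.6 in hypoxia against 1032.5 in control on large polysomes, which is 2.21-fold and 2.13-fold lower. With spiked-control scaling its log2 ratios were -0.84 in total and -1.46 in large-polysome RNA. UGT74D1, an auxin glucosyltransferase of the same family, had 914.5 in hypoxia and 973.0 in control in total RNA, and 895.3 in hypoxia against 776.5 in control on large polysomes. UGT85A2 had 312.7 in hypoxia and 836.6 in control in total RNA, 2.68-fold lower, and 370.8 in hypoxia against 513.6 in control on large polysomes, 1.39-fold lower. The next of the family above the floor, UGT85A4, was so in total RNA of control only.

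The cytokinin N-glucosyltransferases UGT76C1 and UGT76C2 lie side by side on chromosome 5 and both had less signal in hypoxia. UGT76C2 had 338.1 in hypoxia and 677.2 in control in total RNA, and 242.9 in hypoxia against 293.3 in control on large polysomes, log2 ratios of -1.002 and -0.27. UGT76C1 had 131.3 in hypoxia and 221.5 in control in total RNA, and 86.1 in hypoxia against 186.9 in control on large polysomes, so that it was above the floor in the control fractions alone. UGT76B1, which conjugates isoleucic acid and salicylic acid, had ratios of opposite sign in the 2 fractions, a difference that could not be tested. It had 339.8 in hypoxia and 728.8 in control in total RNA, 2.15-fold lower, but 598.1 in hypoxia against 459.9 in control on large polysomes, 1.30-fold higher. With spiked-control scaling the log2 ratios were -0.80 in total RNA and 0.01 on large polysomes.

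Of the remaining 15 members with a ratio in total RNA, 10 were measured on both sides and lay within 2-fold, from -0.65 for UGT80B1 to 0.25 for UGT78D2. The other 5 were bounds short of 2-fold, which leave the full change unknown; that of UGT72E3 was -0.86, and -1.86 with a floor of 70. UGT78D1 and UGT78D2, the flavonol 3-O-rhamnosyl- and flavonoid 3-O-glucosyltransferases, had log2 ratios of -0.02 and 0.25 in total RNA, and of -0.18, a bound, and 0.04 in large-polysome RNA. UGT88A1 had 1169.4 in hypoxia and 1475.6 in control in total RNA, and 1410.6 in hypoxia against 1338.2 in control on large polysomes. UGT80B1, a sterol glucosyltransferase, had log2 ratios of -0.65 and, as a bound, -0.84, and UGT76E2 had -0.56 and -0.39. UGT76E11 and UGT76E12 had no ratio in total RNA. In large-polysome RNA UGT76E11 had a log2 ratio of -0.16, and UGT76E12 had 160.3 in hypoxia against 62.3 in control, a bound of 0.20 that became 1.20 with a floor of 70.

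In the main scaling fewer UGT mRNAs passed 2-fold in large-polysome than in total RNA. Among 26 members with a ratio in large-polysome RNA, 3 were higher and 2 lower in hypoxia. These were UGT73B4, UGT73B5 and UGT87A2 on the higher side and UGT71C1 and UGT74B1 on the lower, all 5 of which were past 2-fold in the same direction in total RNA. The shares were 11.5% higher and 7.69% lower, against 8.11% and 10% of 7360 probe sets, which is near the background. The median log2 ratio was -0.17, against -0.07 for all. Spiked-control scaling, with a median of -0.39 for all, gave 3 higher and 5 lower, beside 4.3% and 19.9% of all probe sets. In total RNA that scaling gave 4 higher and 3 lower, so the smaller number in large-polysome RNA did not hold with it. The share of higher members among those past 2-fold in large-polysome RNA was 37.5% with that scaling and 60.0% in the main one. Among all probe sets it was 17.7% and 44.7%. The 8 members at least 2-fold lower in total RNA ranged from -1.26 to 0.38 in large-polysome RNA, where 2 of them were 2-fold lower, and 4 with spiked-control scaling (UGT71C1, UGT72E1, UGT72E2 and UGT74B1). They were picked for low ratios in total RNA, so a smaller difference in the other fraction follows in part from that choice.

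The hypoxia ratios of the 2 fractions share no array. Among 24 members with both ratios, 19 had the same sign and 5 had opposite signs. A higher ratio in large-polysome than in total RNA was found for 18, but for 8 with spiked-control scaling. These counts have no matching share over all probe sets, so they do not mark a trait of the family. Of the 16 members measured above the floor everywhere, 75% had the higher ratio in large-polysome RNA, against 49.1% of 5857 probe sets. The median difference between the ratios over all such probe sets was -0.01, and -0.66 with spiked-control scaling. This difference is the change of association described below. The 5 with opposite signs were UGT76B1, UGT73B1, UGT71B1, UGT74D1 and UGT88A1, and UGT76B1 alone was past 2-fold on either side. For the 16 members measured above the floor everywhere, the ratios had a Pearson r of 0.752 and a Spearman rho of 0.691, against 0.773 and 0.731 over all 5857 probe sets of this kind; the points share the arrays, and genes are not independent replicates.

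**Figure D2:**
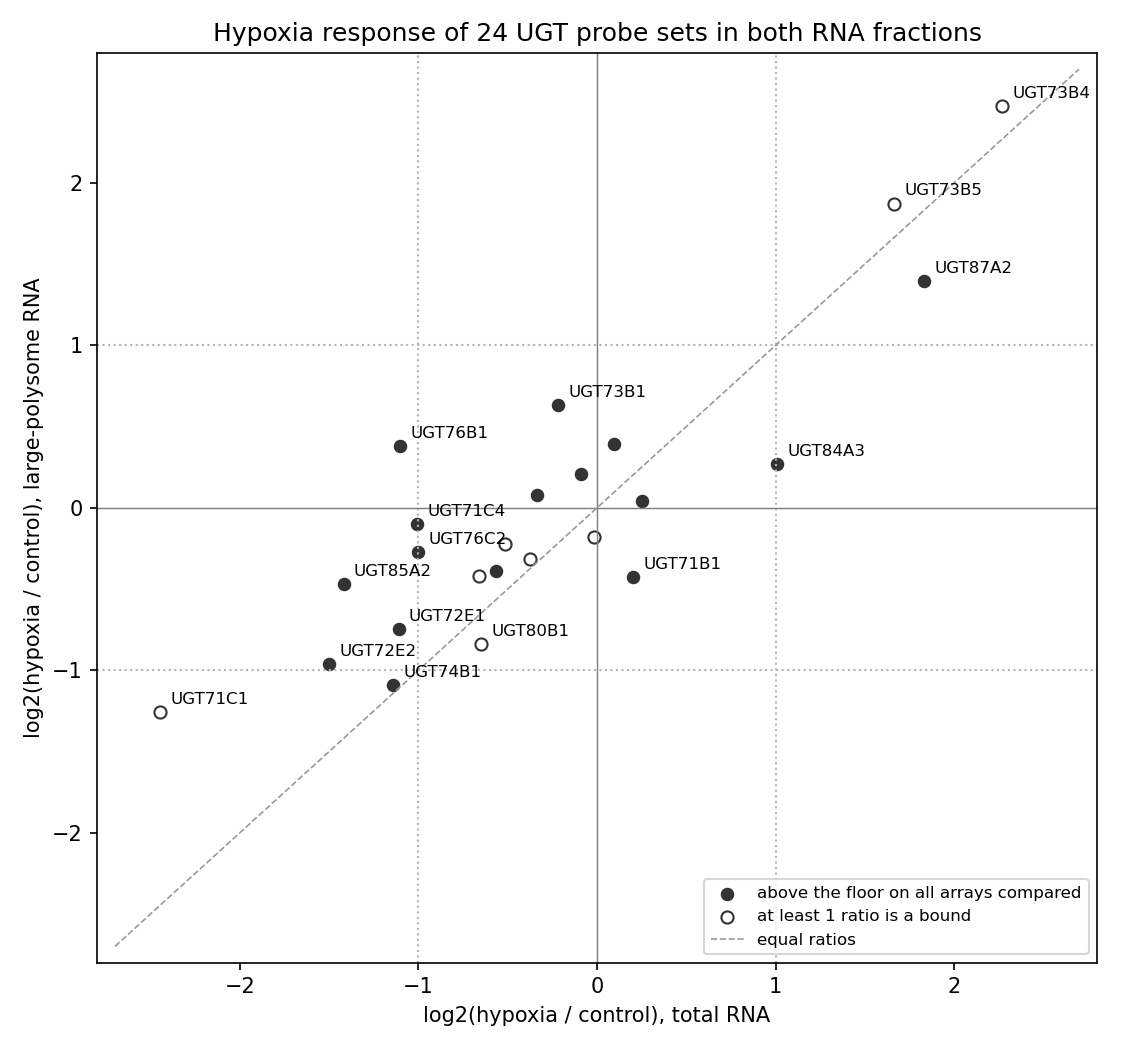
Log2 ratio of hypoxia over control in total RNA (x axis) against that in large-polysome RNA (y axis) for the 24 UGT probe sets with both ratios; open circles have at least 1 ratio that is a bound, dotted lines mark 2-fold and the dashed line equal ratios. UGT73B4, UGT73B5 and UGT87A2 lie at the upper right, and most of the members lower in total RNA lie above the dashed line, a side that depends on the scaling (18 of 24 members here, 8 with spiked controls).

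All 4 UGT72 members were below 0 in total RNA, from -1.50 to -0.52, and the 3 with a ratio in large-polysome RNA were too. UGT72B3 and UGT72E3 were above the floor on control arrays only, so their sign was fixed by the floor, and UGT72E1 and UGT72E2 carry the measured values. All 4 UGT76 members with a ratio in total RNA were below 0, from -1.10 to -0.56, whereas in large-polysome RNA 4 of 6 were below 0, from -0.42 to 0.38. The sign of UGT76C1 was likewise fixed by the floor, as was the positive one of UGT76E12 in large-polysome RNA. The 3 UGT73 members ranged from -0.22 to 2.27 in total RNA, and the 5 UGT71 members from -2.45 to 0.20. The 2 UGT84 members stood at 1.01 and -0.38, and the 2 UGT85 members at -1.42 and -0.20. The 2 UGT78 members stood at -0.02 and 0.25, and UGT80, UGT87 and UGT88 had 1 member each. No member of UGT73C, UGT73D, UGT74F, UGT76D or UGT84B was above 140, although UGT73C had 3 probe sets. With 1 to 6 members a family and 1 array a group, no difference between families was tested.

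**Figure D3:**
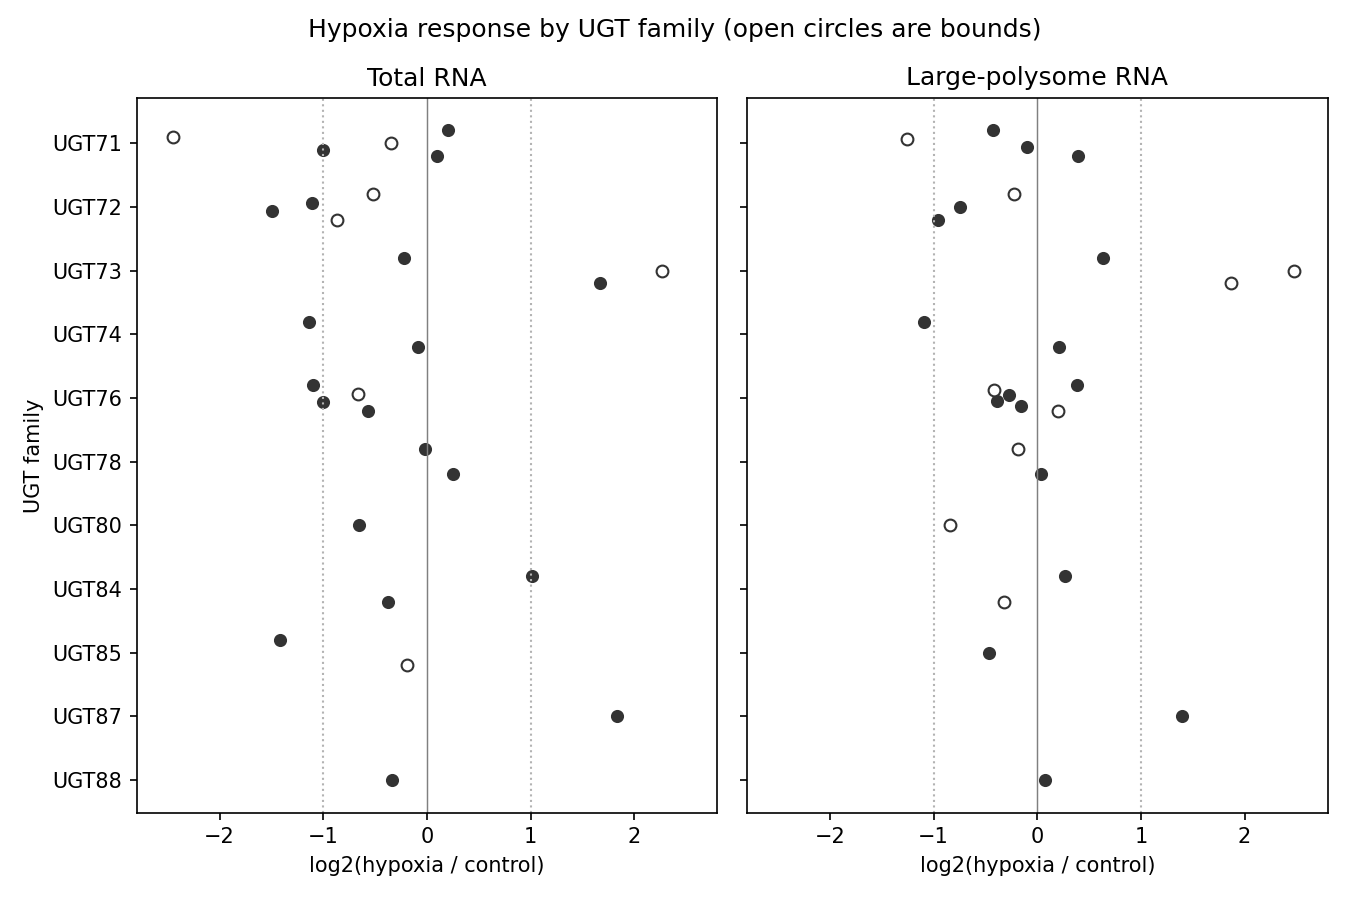
Log2 ratio of hypoxia over control for each UGT probe set, by family from UGT71 to UGT88, in total RNA (left) and large-polysome RNA (right); filled circles are ratios, open circles bounds, and dotted lines mark 2-fold. All UGT72 points lie left of 0 in both panels, the open ones by way of the floor, and the UGT73 and UGT71 points spread widely.

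Position in the genome was not used to choose the members. With at most 5 protein-coding genes between neighbours in RefSeq TAIR10.1, 31 of the 47 members fell into 13 groups of 2 to 4 genes, of which 16 were among the 29 with signal. The pair UGT73B4 and UGT73B5 on chromosome 2 was higher together, and in the pair UGT76C1 and UGT76C2 on chromosome 5 both ratios were below 0, that of UGT76C1 as a bound. In the array UGT71C3, UGT71C4 and UGT71C5 on chromosome 1 the ratios in total RNA ran from -1.01 to 0.10, and in UGT84A1, UGT84A3 and UGT84A4 on chromosome 4 from -0.38 to 1.01, with UGT84A1 under the floor. In the array of UGT85A2, UGT85A3, UGT85A5 and UGT85A7 on chromosome 1, UGT85A2 was the 1 member above the floor. Neighbours are also alike in sequence, and cross-hybridisation between them was not tested.

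In hypoxia no UGT member of 23, 5 of them bounds, was past 2-fold between large-polysome and total RNA. Of 7133 probe sets, 1.02% passed 2-fold toward large polysomes and 1.25% passed it the other way, so this count is near the background. The median log2 fraction ratio of the members, large-polysome over total, was 0.08, against -0.03 for all. Below 0 were 34.8% of members, against 52.9% of all, and 5 of the 18 members measured on both sides. The range ran from UGT76C2 at -0.48, with 242.9 in large-polysome and 338.1 in total RNA, to UGT76B1 at 0.82, with 598.1 in large-polysome and 339.8 in total RNA.

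In control seedlings, 20 of 27 members (74.1%) had less signal in large-polysome than in total RNA, against 52.9% of 7559 probe sets, and 8 of 25 did with spiked-control scaling. Of the 5 bounds in the main scaling, 4 were above the floor in total RNA only and could lie only below 0. Of the 22 members measured on both sides, 16 were below 0. On large polysomes UGT76C2, UGT71C1 and UGT73B1 were past 2-fold on the lower side, 11.1% of members against 2.98% of all. UGT87A2 passed it on the higher side, 3.7% against 2.08%. UGT76C2 had 293.3 in large-polysome and 677.2 in total RNA, UGT73B1 had 173.2 in large-polysome and 392.4 in total RNA, and UGT71C1 had 334.6 in large-polysome and 763.1 in total RNA. They were 2.31-, 2.27- and 2.28-fold lower. With spiked-control scaling none of the 3 passed 2-fold, at log2 ratios of -0.53 for UGT76C2, -0.51 for UGT73B1 and -0.52 for UGT71C1, and the counts became 3 higher and 0 lower, beside 20.5% and 0.325% of all. UGT87A2 had 951.5 in large-polysome and 473.6 in total RNA, and UGT84A3 and UGT71B1 also leaned to large polysomes, with log2 ratios of 0.80 and 0.71. The median was -0.20 against -0.03 for all, and was 0.43 against 0.59 for all when arrays were scaled on the spiked hybridisation controls. For an actin pair of control probe sets, 3' over 5' signal was 2.15 and 2.45 on the large-polysome arrays of hypoxia and control. On the total RNA arrays it was 1.22 and 1.39. Another actin pair gave 7.34 and 10.9 on large polysomes, and 5.53 and 5.46 in total RNA. A GAPDH pair differed little between fractions, with 0.80 and 1.12 on large polysomes, and 0.746 and 1.06 in total RNA. The part of such 3' to 5' differences in the fraction ratios was not tested.

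The change of association, the log2 fraction ratio in hypoxia minus that in control, could be computed for the 16 members above the floor on all 4 arrays. It was above 0 for 12 of them (75%, against 49.1% of 5857 probe sets), and for 5 of 15 with spiked-control scaling. This repeats the count of members with the higher hypoxia ratio in large-polysome RNA given above, since the 2 measures are equal by definition. The median change of association was 0.33 against -0.01 for all. Scaling on the spiked controls gave -0.30 for the members and -0.66 for all, so that the members' median lay 0.36 above that of all, against 0.34 in the main scaling. UGT76B1 changed most, with a fraction ratio of 0.82 in hypoxia against -0.66 in control, a gain of 1.48, and was the 1 member past 2-fold (6.25%, against 3.04% of all past 2-fold upward and 1.88% downward). With spiked-control scaling its gain was 0.81 and no member passed 2-fold upward, while UGT84A3 at -1.41 and UGT87A2 at -1.11 passed it downward, beside 0.417% of all upward and 22.8% downward. UGT85A2, UGT71C4, UGT73B1 and UGT76C2 followed with 0.95, 0.91, 0.85 and 0.73. The 4 members below 0 were UGT84A3 at -0.74, UGT71B1 at -0.63, UGT87A2 at -0.44 and UGT78D2 at -0.21. Pairs of probe sets of a gene differed in this measure by a median of 0.45, with a 95th percentile of 1.01 (32 genes).

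The total RNA control array enters the hypoxia ratio of total RNA, the fraction ratio in control and the change of association, and it is also the sample with no stated time. All 7 of the members 2-fold lower in total RNA that had a change of association were above 0 in it, from 0.05 for UGT74B1 to 1.48 for UGT76B1 (4 of 7 with spiked-control scaling), and 6 of the 8 were below 0 in the control fraction ratio (5 with that scaling). The 3 measures are therefore not independent. Picking members by a low ratio in total RNA favours a change of association above 0 and a control fraction ratio below 0. These counts have no matching share over all probe sets, so they do not mark a trait of the family. For UGT71C4, UGT76C2 and UGT85A2 that array held the highest of the 4 intensities, and the other 3 lay at 329.3 to 367.6, 242.9 to 338.1 and 312.7 to 513.6. For UGT76B1 the total RNA control of 728.8 was also highest, and large-polysome RNA in hypoxia, at 598.1, was next. UGT71C1 and UGT72E2 were likewise highest there, at 763.1 and 922.5, with large-polysome RNA of control next, at 334.6 and 486.5. For UGT72E1 and UGT74B1 the highest array was large-polysome RNA of control, at 1583.2 and 1032.5.

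**Figure D4:**
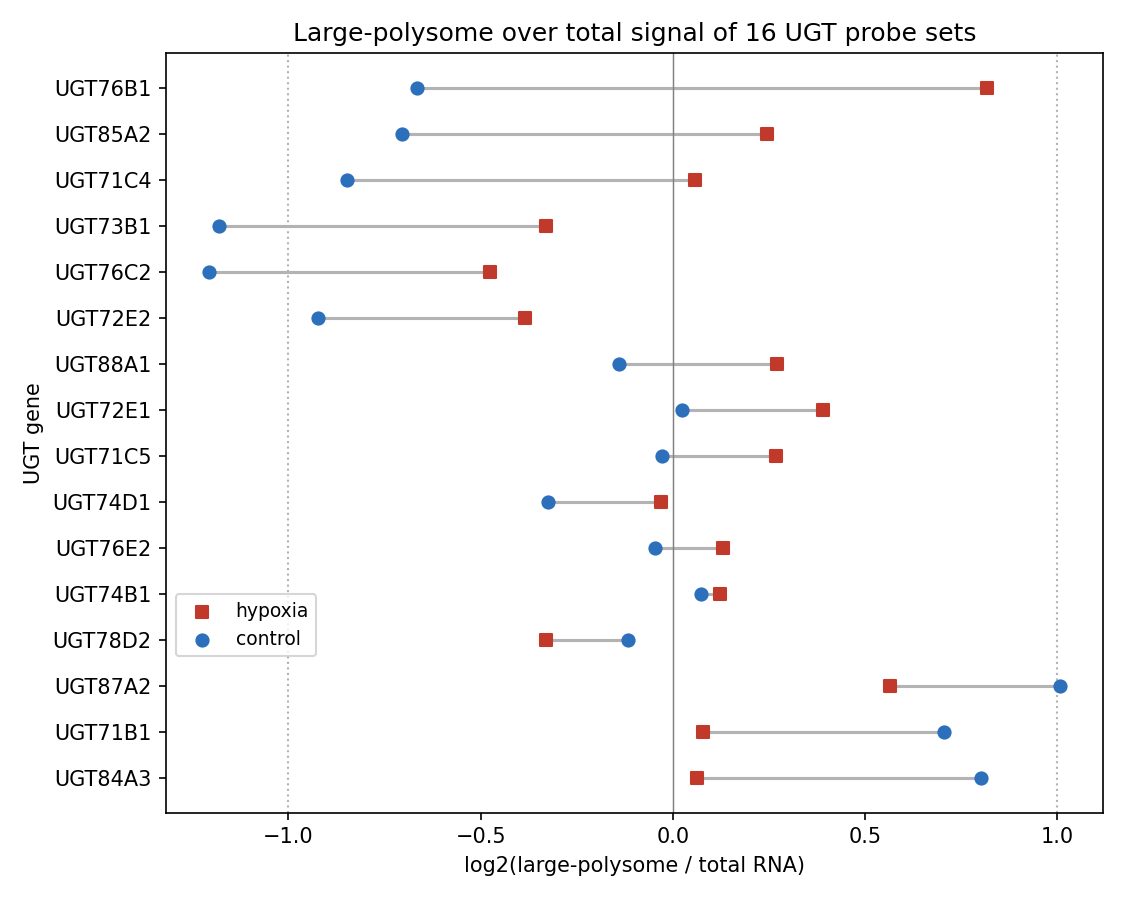
Log2 fraction ratio (large-polysome over total RNA) in hypoxia (red squares) and control (blue circles) for the 16 UGT probe sets above the floor on all 4 arrays, ordered by the change between them; dotted lines mark 2-fold. For 12 members the square lies right of the circle (5 of 15 with spiked-control scaling), with the widest gap for UGT76B1, and for UGT84A3, UGT71B1, UGT87A2 and UGT78D2 it lies left.

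Root markers were lower in hypoxia in total RNA. The summed intensity of the 3 root markers with a named probe set, of 5 written down, was 14515.6 in hypoxia and 20410.6 in control in total RNA, and 14518.8 in hypoxia against 13409.7 in control on large polysomes. Most of each sum is PYK10, with 14169.5 in hypoxia against 12708.7 in control on large polysomes, and the other two were lower in hypoxia in both fractions. EXPA18, an expansin of root hair cells, had 243.5 in hypoxia and 859.6 in control in total RNA, and 243.9 in hypoxia against 539.5 in control on large polysomes. EXPA7, another, had 95.6 in hypoxia and 339.8 in control in total RNA, and 105.4 in hypoxia against 161.5 in control on large polysomes. The 3 shoot markers with a named probe set, of 7 written down, summed to 21969.5 in hypoxia and 23393.7 in control in total RNA. On large polysomes they summed to 18120.0 in hypoxia against 14974.3 in control. Most of each sum is LHCB4.1, with 12963.0 in hypoxia against 10561.7 in control on large polysomes. LHCB4.3 was lower in hypoxia there, with 343.6 against 410.5 in control. The part of root and shoot markers in the UGT ratios was not tested.

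Other steps around glycosylation were thinly covered by named probe sets. Of 26 genes written down for UDP-sugar supply only USP, a UDP-sugar pyrophosphorylase, had one. It had 315.3 in hypoxia and 790.5 in control in total RNA, a log2 ratio of -1.33, and 385.6 in hypoxia against 713.8 in control on large polysomes, a log2 ratio of -0.89. Of 18 genes for flavonoid synthesis only DFR had a named probe set, and it was under the floor on all 4 arrays. None of 15 ABCC transporters, some of which carry conjugates into the vacuole, had one.

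Glutathione transferases, which conjugate many of the same foreign compounds with glutathione, had 13 named probe sets of 47 genes. In total RNA 9 had a ratio, 2 of them past 2-fold upward and 3 downward in hypoxia, with a median of 0.42. Of all 1-gene probe sets, 5.45% passed 2-fold upward there and 8.65% downward. In large-polysome RNA the counts were 2 and 3 of 10, with a median of 0.12, beside 8.11% and 10% of all. GSTU25 had 2872.6 in hypoxia and 166.4 in control in total RNA, and GSTU22 had 1415.9 in hypoxia and 345.8 in control. GSTU28, GSTU26 and GSTU27 were the lower ones in both fractions, with log2 ratios in total RNA of -1.996, a bound, -1.50 and -1.39.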

How the data were processed

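The authors' deposited values are linear probe set intensities of 4 ATH1 arrays; the software that summarised probes is not given in the sources used here, nor is any background correction. The mean of non-control probe sets between the 2nd and 98th percentile was 495.3 to 496.5 on every array, which points to scaling by the authors before deposit. One station processed all arrays, per the file headers, and the total RNA hypoxia array was scanned 2 times, the others 1 time.

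Of 22746 non-control probe sets, 13513 had 1 gene in the platform annotation, 503 had several and 8730 were unlisted; 13436 matched RefSeq TAIR10.1, used for names and gene order. Intensities were rescaled to an equal trimmed mean (factors 0.999 to 1.001), floored at 140, and turned into log2 ratios with Python 3.11.15, pandas 2.3.3 and numpy 2.4.6. The calculation was tested on simulated data. With 1 array per group no test or interval was possible, and the number of arrays limits the precision.

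Alternatives were the values as deposited, quantile normalization, scaling on spiked controls, floors of 70 and 280, probe sets with a plain _at name, and members above the floor on all arrays. Values on all arrays are given for members past 2-fold in any of 4 ratios and for the 10 with the highest mean signal; a few others were added after their values were seen. Members and lists were chosen with earlier results of these data known.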

Additional observations from a re-analysis of the deposited data

Results flagged for a closer look

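UGT76B1 had ratios of opposite sign in the 2 fractions, with a log2 ratio of hypoxia over control of 0.38 in large-polysome RNA and -1.10 in total RNA, a change of association of 1.48. With 1 array per group the difference was not tested. Its probe set was above the floor on all 4 arrays. With spiked-control scaling the log2 ratios were 0.01 in large-polysome RNA and -0.80 in total RNA, and the change was 0.81, short of 2-fold.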

How the results depend on the processing

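Of 21 member ratios past 2-fold, none changed sign after quantile normalization or with spiked-control scaling. The other alternatives could not change the sign of such a ratio, since they keep the order of the 2 intensities. Values as deposited, a floor of 70 and plain _at names could hardly take a call away, since they differ by a factor near 1, can only widen a bound, or remove no member. Members above the floor on all arrays kept their ratios, so the 14 calls among them could not be lost. Of the 21, still past 2-fold were 19 after quantile normalization (not UGT71C4 and UGT76C2 in total RNA), 16 with a floor of 280 and 13 with spiked-control scaling. Other member ratios newly past 2-fold were 5 with spiked-control scaling, 4 with a floor of 70, and 0 after quantile normalization or with a floor of 280. Spiked-control scaling moved the median of all probe sets from -0.06 to 0.22 for hypoxia in total RNA, from -0.07 to -0.39 in large-polysome RNA and from -0.03 to 0.59 for the control fraction ratio. With it, 3 members were at least 2-fold lower in total RNA and 5 in large-polysome RNA. The control fraction ratio then had a median of 0.43 with 3 members higher and 0 lower, and the change of association a median of -0.30 with 0 higher and 2 lower. Called members in total RNA were then 57.1% higher, against 33.3% before, and among all probe sets 70.8% against 38.7%. In large-polysome RNA they were 37.5% higher against 60.0%, and among all 17.7% against 44.7%. After quantile normalization the share among all probe sets in total RNA was 49.1%. The floor of 280 left 2 members higher in total RNA, 1 lower in large-polysome RNA and a median there of 0.076. The floor of 70 gave 2 members gaining association past 2-fold. Members above the floor on all arrays gave 2 higher in total RNA, and 1 higher and 1 lower in large-polysome RNA, since fewer probe sets entered. The cause of the other shifts was not tested. No paired analysis was possible because each group has 1 array. Signal over background limits the bounds: a member near or under 140 cannot show its full change.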
